A study of Mus musculus with 6 samples.

Results

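The cytotoxic granule genes described here are 10 genes of the killing machinery of T and NK cells, chosen by symbol from the 55951 genes of the deposited FPKM table. They are the granzymes Gzma, Gzmb, Gzmk and Gzmm, the pore former Prf1, the granule proteins Nkg7, Ctsw and Srgn, the death ligand Fasl and the granzyme inhibitor Serpinb9. Each symbol had 1 row, and all 10 genes passed the filter on low values, a mean of at least 1 FPKM over the 6 libraries.

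Polyadenylated RNA was sequenced from splenic CD8+ effector-memory T cells (TEM) of C57BL/6 mice in which asthma had been induced with ovalbumin (OVA). All mice carried the S100A4-EGFP reporter, whose green fluorescence reads out expression of S100A4, a calcium-binding protein of the S100 family. Cells of both groups were gated as CD3+, CD8+, CD4-, CD44+ and CD62L-, and then split into EGFP-positive cells (S100A4-positive, 3 libraries) and EGFP-negative cells (S100A4-negative, 3 libraries). Both groups thus share the reporter allele, the strain and the asthma model, and the labels list no other treatment. The labels do not say whether the 3 libraries of a group came from separate animals or from pools, so p-values measure only the spread between these libraries, which may be technical. Age and the way EGFP was placed in the S100A4 gene are not given in the sources used here.

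Cytotoxic T cells keep perforin and granzymes in secretory granules. On contact with a target cell the granules fuse with the plasma membrane, perforin opens the target's membrane, and the granzymes, which are serine proteases, enter and start cell death. Inside the granule the proteins are held by serglycin, a proteoglycan that is also made by many myeloid cells. Fas ligand offers another route, through the receptor Fas on the target, and the inhibitor encoded by Serpinb9 protects the killer cell from its own granzyme B.

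Each library held 14925260 to 18660188 reads, recovered from the deposited values. The sorting gate was only partly seen in the RNA. S100a4 had 9, 25 and 11 reads in S100A4-positive libraries and 0, 3 and 1 reads in S100A4-negative libraries. RNA of T cell markers was present in every library, but all 12 listed markers were lower in S100A4-positive cells, with a summed level of 285 to 427 FPKM in S100A4-positive libraries and 1907 to 2201 FPKM in S100A4-negative libraries. Macrophage and monocyte markers stood the other way: 17 of 18 were higher, and their summed level was 6458 to 7221 FPKM in S100A4-positive libraries and 558 to 733 FPKM in S100A4-negative libraries. Cd4, against which cells were gated, was read at 42.5, 52.4 and 66.6 FPKM in S100A4-positive libraries and at 67.2, 337 and 111 FPKM in S100A4-negative libraries, with S100A4-negative replicate 2 apart from the others. Among the other marker lists, 8 of 9 neutrophil markers were lower in S100A4-positive cells (Ngp by a log2 fold change of -2.81). All 10 B and plasma cell markers were lower too (Jchain by -3.47). Neutrophil markers summed to 413 to 1721 FPKM in S100A4-positive libraries and to 3274 to 4878 FPKM in S100A4-negative libraries. For B and plasma cell markers the sums were 523 to 782 FPKM and 2336 to 3416 FPKM. In S100A4-negative libraries both sums thus lay above that of the T cell markers. Of 7 plasmacytoid dendritic cell markers 1 was higher (Bst2, 0.46) and 2 were lower (Spib, -1.14, and Tcf4, -0.82). By the limma test described below, 43.4% of all tested genes were lower and 19.0% higher. After median-of-ratios rescaling 5 of the B and plasma cell markers were still called lower, and 0 of the plasmacytoid dendritic cell markers (adjusted p = 0.160 for Spib and 0.0533 for Tcf4). In bulk RNA, fewer cells of a type and less RNA per cell cannot be told apart, and the part that other cell types had in the differences below was not tested.

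Of the 10 cytotoxic granule genes, 8 were lower in S100A4-positive than in S100A4-negative cells, Srgn was higher and Serpinb9 did not pass the test. The genes that fell were all 4 granzymes, Prf1, Nkg7, Ctsw and Fasl, by log2 fold changes of -1.89 to -3.02. The test was limma on log2(FPKM + 1) with Benjamini-Hochberg adjustment over 13241 genes, and an adjusted p below 0.05 counted as a call. By this rule 62.3% of all tested genes were called, 43.4% lower and 19.0% higher, so a call by itself says little about these genes. The libraries of the groups did not overlap for 8 of the 10 members, all lower in S100A4-positive cells, against 70.0% of all tested genes, 49.1% lower and 20.9% higher. The size of the change stood further out: the median log2 fold change was -2.55 over the 10 genes and -0.36 over all tested genes, and 546 tested genes (4.12%) fell by at least as much as Gzmm, the member that fell least. After median-of-ratios rescaling, which moved the median of all genes by 0.34, the split over all genes was 27.7% higher and 24.3% lower, while all 8 of these members still fell, with log2 fold changes of -1.60 to -2.65.

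**Figure D1:**
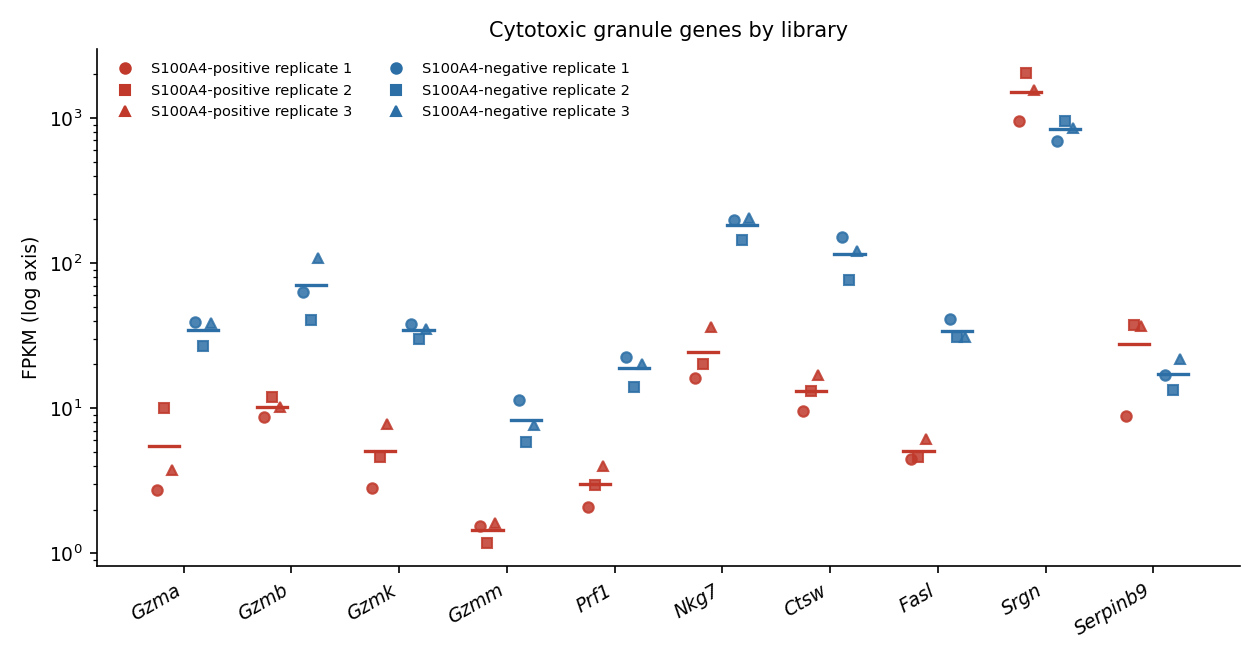
Level of each of the 10 genes in every library, in FPKM on a log axis, with S100A4-positive libraries in red on the left and S100A4-negative libraries in blue on the right of each gene, and a line at each group's mean. For the 4 granzymes, Prf1, Nkg7, Ctsw and Fasl every S100A4-positive library lies below every S100A4-negative library, while the groups overlap for Srgn and Serpinb9.

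Gzmb (ENSMUSG00000015437, chr14:56258838-56262260, minus strand, mm10) encodes granzyme B, which cuts after aspartate and activates caspases in the target cell. It was read at 8.63, 11.9 and 10.2 FPKM in S100A4-positive libraries and at 62.8, 40.7 and 108 FPKM in S100A4-negative libraries. The groups did not overlap, and the S100A4-negative libraries were the more variable, with the highest 2.65 times the lowest, against 1.38 times in S100A4-positive libraries. The means were 10.2 ± 1.63 FPKM in S100A4-positive and 70.5 ± 34.3 FPKM in S100A4-negative cells (SD, n = 3 each), a 6.88-fold lower mean, and the log2 fold change was -2.57 (SE 0.32, limma adjusted p = 5.72e-04).

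Gzma (ENSMUSG00000023132, chr13:113093825-113100981, minus strand) encodes granzyme A, a protease that cuts after basic residues. Its level was 2.71, 10.1 and 3.75 FPKM in S100A4-positive libraries and 39.0, 26.7 and 38.6 FPKM in S100A4-negative libraries. S100A4-positive replicate 2 stood 3.72 times above the lowest library of its group but still below every S100A4-negative library. The log2 fold change was -2.60 (SE 0.39, limma adjusted p = 0.00118), the largest standard error among the 8 genes that fell.

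Gzmk (ENSMUSG00000042385, chr13:113171608-113225908, minus strand), which encodes the related protease granzyme K, lies 70.6 kb from Gzma with 0 protein-coding genes between them in GENCODE M21. It was read at 2.80, 4.62 and 7.73 FPKM in S100A4-positive libraries and at 38.3, 29.9 and 34.9 FPKM in S100A4-negative libraries. Here S100A4-positive replicate 3 was the highest of its group and replicate 1 the lowest, an order unlike that of Gzma. The log2 fold change was -2.62 (SE 0.29, limma adjusted p = 3.11e-04).

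Gzmm (ENSMUSG00000054206, chr10:79689020-79695261, plus strand) had the lowest level of the 10 genes in both groups. It was read at 1.54, 1.18 and 1.61 FPKM in S100A4-positive libraries, from 28, 19 and 30 reads, and at 11.4, 5.86 and 7.67 FPKM in S100A4-negative libraries, from 209, 112 and 154 reads. The groups did not overlap, and the log2 fold change was -1.89 (SE 0.24, limma adjusted p = 5.31e-04). On the log2(FPKM + 1) scale the added 1 FPKM is close to the level itself in S100A4-positive libraries and makes this change smaller: with 0.1 FPKM added in its place the log2 fold change of Gzmm was -2.41.

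The other granzyme genes were scarce. Gzmc was read 1, 11 and 10 times in S100A4-positive libraries and 17, 11 and 26 times in S100A4-negative libraries, and Gzmd, Gzme, Gzmf, Gzmg and Gzmn were listed at 0 in all 6 libraries. Summed over the granzyme genes, the level was 15.7, 28.6 and 23.9 FPKM in S100A4-positive libraries and 153, 104 and 191 FPKM in S100A4-negative libraries. Within this sum the make-up was mixed in both groups and overlapped for every granzyme. Gzmb made up 54.8%, 41.6% and 42.6% of granzyme FPKM in S100A4-positive libraries and 41.1%, 39.2% and 56.6% in S100A4-negative libraries. The ratio of Gzma to Gzmk was 0.966, 2.18 and 0.486 in S100A4-positive libraries and 1.02, 0.895 and 1.11 in S100A4-negative libraries, a difference of 0.0084 in mean log2 ratio (exact two-sided permutation p = 1.00, adjusted over 6 ratios 1.00). How reads that match several granzymes were shared out is not given in the sources used here, so the split among close copies is uncertain.

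**Figure D2:**
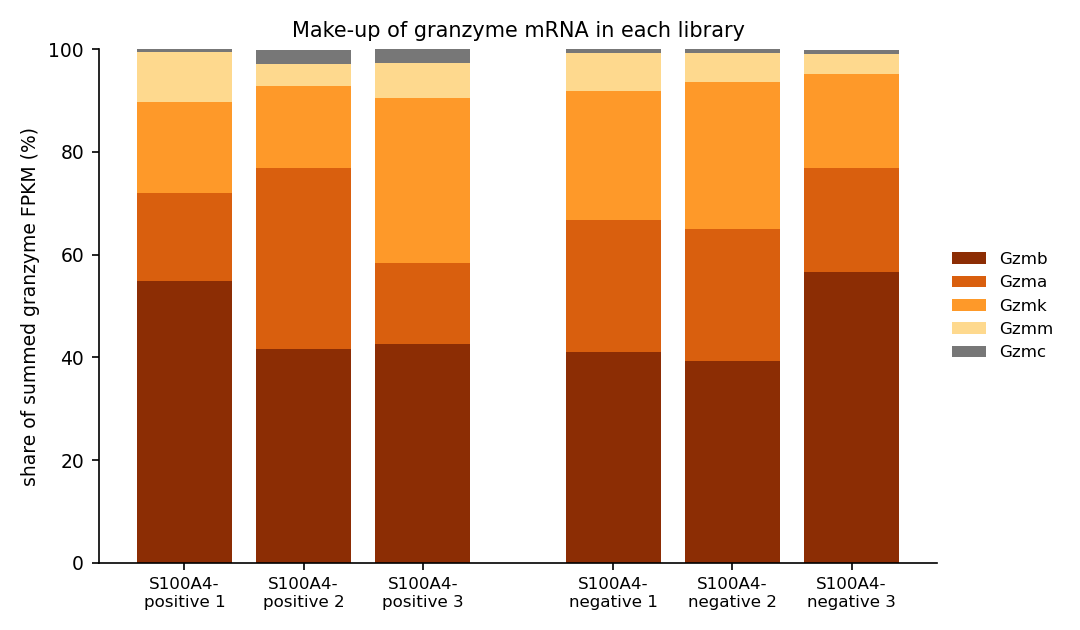
Share of each granzyme gene in the summed granzyme FPKM of each library, in percent, with the 3 S100A4-positive libraries on the left and the 3 S100A4-negative libraries on the right. Gzmb is the largest share in all 6 libraries (39.2% to 56.6%), and no granzyme's share separates the groups.

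Prf1 (ENSMUSG00000037202, chr10:61297833-61304680, plus strand) encodes perforin, without which granzymes do not reach the target's cytosol. Its level was 2.07, 2.96 and 4.02 FPKM in S100A4-positive libraries and 22.4, 13.9 and 20.2 FPKM in S100A4-negative libraries. The groups lay far apart, with means of 3.02 ± 0.976 FPKM in S100A4-positive and 18.8 ± 4.44 FPKM in S100A4-negative cells (SD, n = 3 each). The log2 fold change was -2.31 (SE 0.24, limma adjusted p = 2.60e-04). Perforin and granzyme B fell by like amounts: the ratio of Prf1 to Gzmb was 0.240, 0.248 and 0.395 in S100A4-positive libraries and 0.357, 0.340 and 0.187 in S100A4-negative libraries, which overlapped (difference in mean log2 ratio 0.017, exact two-sided permutation p = 1.00).

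Nkg7 (ENSMUSG00000004612, chr7:43437073-43438249, plus strand), which encodes a granule membrane protein needed for efficient degranulation, was read at 16.1, 20.3 and 36.2 FPKM in S100A4-positive libraries and at 198, 144 and 205 FPKM in S100A4-negative libraries. The groups lay far apart, and the log2 fold change was -2.93 (SE 0.29, limma adjusted p = 2.03e-04). Ctsw (ENSMUSG00000024910, chr19:5465043-5468507, minus strand), which encodes the cysteine protease cathepsin W of cytotoxic lymphocytes, fell most. It was read at 9.53, 13.2 and 16.9 FPKM in S100A4-positive libraries and at 151, 76.2 and 121 FPKM in S100A4-negative libraries, an 8.80-fold lower mean, which gave -3.02 on the log2 scale (SE 0.28, limma adjusted p = 1.71e-04). Of the exon bases of Ctsw 0.477% are shared with Fibp on the opposite strand, and the other 9 genes share none with a neighbour.

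Fasl (ENSMUSG00000000817, chr1:161780689-161788495, minus strand) encodes the ligand of Fas. The level was 4.43, 4.63 and 6.10 FPKM in S100A4-positive libraries and 41.0, 30.7 and 30.7 FPKM in S100A4-negative libraries. The libraries of each group agreed closely, and the log2 fold change, -2.53, had the smallest standard error of the 10 genes (SE 0.17, limma adjusted p = 5.07e-05).

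Srgn (ENSMUSG00000020077, chr10:62493833-62527451, minus strand), the serglycin gene, was by far the most abundant of the 10 genes in both groups. It was read at 948, 2047 and 1566 FPKM in S100A4-positive libraries and at 695, 950.2 and 856 FPKM in S100A4-negative libraries. The groups overlapped, since S100A4-positive replicate 1 fell just under S100A4-negative replicate 2. The log2 fold change was 0.81 (SE 0.29, limma adjusted p = 0.0429). The call was not firm: it was lost without a filter on low values (adjusted p = 0.108) and on leaving out any library but S100A4-positive replicate 1 (adjusted p = 0.0637 to 0.134), and the authors' deposited table did not call Srgn (log2 fold change 1.26, adjusted p = 0.0616).

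Serpinb9 (ENSMUSG00000045827, chr13:33003250-33017957, plus strand), whose product inhibits granzyme B, was read at 8.83, 37.7 and 36.8 FPKM in S100A4-positive libraries and at 16.8, 13.3 and 21.7 FPKM in S100A4-negative libraries. S100A4-positive replicate 1 was the lowest of all 6 libraries, and S100A4-positive replicates 2 and 3 were the highest. The log2 fold change was 0.44 (SE 0.51) with an interval of -0.76 to 1.63, and Serpinb9 was not called (limma adjusted p = 0.476). Without S100A4-positive replicate 1 the log2 fold change was 1.09 and passed the test (adjusted p = 0.00412). That library also had the highest summed level of macrophage and monocyte markers in its group, 7221 FPKM, and the lowest of T cell markers, 285 FPKM.

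In bulk RNA, Serpinb9 did not fall with Gzmb, and whether both RNAs came from the same cells was not tested. The ratio of Serpinb9 to Gzmb was 1.02, 3.17 and 3.61 in S100A4-positive libraries and 0.267, 0.328 and 0.201 in S100A4-negative libraries. The groups did not overlap, and the mean log2 ratio differed by 3.12. The exact two-sided permutation p was 0.1, and 0.300 adjusted over 6 ratios. A p of 0.1 is the smallest that 3 against 3 libraries can give, so no difference between single values can pass 0.05 in this test. The ratio of Srgn to Gzmb was likewise 110, 172 and 154 in S100A4-positive libraries and 11.1, 23.3 and 7.93 in S100A4-negative libraries, with a difference of 3.49 in mean log2 ratio (exact permutation p = 0.1, 0.300 adjusted over 6 ratios).

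In the authors' deposited table, which lists a mean normalized read count per group, the same 8 genes were called lower and no member was called higher. The authors' deposited table called 18.9% of the 28627 genes that had an adjusted p there, 7.35% lower and 11.6% higher. The log2 fold changes of the 8 genes in the authors' deposited table ran from -2.15 for Gzmm to -2.75 for Ctsw.

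Since FPKM is per transcript length, the levels of the 10 genes can be ordered within a group. In S100A4-positive cells the order of mean FPKM was Srgn, Serpinb9, Nkg7, Ctsw, Gzmb, Gzma, Fasl, Gzmk, Prf1 and Gzmm. Srgn and Gzmm stood apart from their neighbours, and the ranges of all other neighbours overlapped. In S100A4-negative cells it was Srgn, Nkg7, Ctsw, Gzmb, Gzma, Gzmk, Fasl, Prf1, Serpinb9 and Gzmm. There Srgn, Gzmb against Gzma, Fasl against Prf1 and Serpinb9 against Gzmm did not overlap, while Nkg7, Ctsw and Gzmb overlapped in turn, as did Gzma, Gzmk and Fasl. By mean FPKM Serpinb9 thus held place 2 of the 10 genes in S100A4-positive cells and place 9 in S100A4-negative cells. These places are not firm, since its range overlapped that of Nkg7 in S100A4-positive and that of Prf1 in S100A4-negative libraries.

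Libraries of a group differed in a common way. S100A4-positive replicate 1 was the lowest of its group for 9 of the 10 genes, all but Gzmm, and S100A4-negative replicate 2 was the lowest of its group for 9, all but Srgn. On leaving out each library in turn, these included, the log2 fold changes of the 8 genes that fell stayed between -3.30 and -1.66 and all were called. S100A4-positive replicate 1 also had the lowest T cell receptor RNA of its group: the geometric mean of Cd3d, Cd3e and Cd3g was 20.2, 23.4 and 34.7 FPKM in S100A4-positive libraries and 152, 169 and 142 FPKM in S100A4-negative libraries. S100A4-negative replicate 2 had the highest CD3 level of its group but the lowest coreceptor RNA: the geometric mean of Cd8a and Cd8b1 was 12.7, 16.5 and 25.7 FPKM in S100A4-positive libraries and 187, 89.0 and 142 FPKM in S100A4-negative libraries.

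All but Gzmm of the 8 genes that fell had log2 fold changes within the range of the T cell markers, -2.26 for Cd2 to -3.15 for Cd8b1. The added 1 FPKM makes the change of Gzmm smaller, so its place outside this range may rest on the scale. The range was not particular to T cell genes: the median log2 fold change of the 9 neutrophil markers was -2.35. The median log2 fold change of the 12 T cell markers was -2.61, with Cd3d at -2.66, Cd3e at -2.61, Cd3g at -2.40, Cd8a at -2.55 and Cd8b1 at -3.15, all called lower by limma (adjusted p 7.51e-05 to 9.18e-04). Each gene was therefore also divided in every library by the geometric mean of the 3 CD3 chains. Such a ratio shows only whether gene and divisor changed unequally. A small scaled difference was not particular to T cell genes either: the median CD3-scaled log2 difference of the 9 neutrophil markers was 0.24. Per 100 FPKM of CD3 chains, Fasl was 22.0, 19.8 and 17.6 in S100A4-positive libraries and 26.9, 18.1 and 21.6 in S100A4-negative libraries. Prf1 per 100 FPKM of CD3 chains was 10.3, 12.7 and 11.6 in S100A4-positive libraries and 14.7, 8.18 and 14.2 in S100A4-negative libraries. For both genes, as for all 8, the groups now overlapped, and the scaled log2 differences ran from -0.51 for Ctsw to 0.090 for Gzmm (exact two-sided permutation p 0.300 to 1.00).

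These scaled differences were not tightly bounded. The interval, at 95% and from the spread of the 6 libraries, was -0.65 to 0.36 for Fasl, -0.79 to 0.67 for Prf1 and -0.96 to 0.43 for Gzmk, but -1.52 to 1.36 for Gzmb and -2.01 to 1.52 for Gzma. Gzmb per 100 FPKM of CD3 chains was 42.8, 50.9 and 29.4 in S100A4-positive libraries and 41.3, 24.0 and 76.0 in S100A4-negative libraries. Gzma on the same scale was 13.4, 43.2 and 10.8 in S100A4-positive libraries and 25.7, 15.8 and 27.2 in S100A4-negative libraries, with S100A4-positive replicate 2 far above the other libraries of its group. The data therefore do not show that the 8 genes kept a fixed ratio to CD3 RNA, only that no difference in the ratio was detectable with 3 libraries a group.

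Srgn and Serpinb9 stood apart on this scale. Per 100 FPKM of CD3 chains, Srgn was 4696, 8764 and 4516 in S100A4-positive libraries and 457, 561 and 603 in S100A4-negative libraries, a log2 difference of 3.41 with an interval of 2.49 to 4.33. Serpinb9 was 43.8, 161 and 106 in S100A4-positive libraries and 11.0, 7.87 and 15.3 in S100A4-negative libraries, a log2 difference of 2.92 with an interval of 1.25 to 4.59. The groups did not overlap for either gene (exact permutation p = 0.1 each, 0.333 adjusted over 20 scaled tests). Most genes shared this direction, since the divisor itself was lower in S100A4-positive cells: the median scaled log2 difference was 2.01 over all tested genes and -0.11 over the 10 members. A limma fit of the scaled values called 2 of the 10 members, both higher, against 90.8% of all tested genes, 89.9% higher and 0.959% lower. In that fit an error of the divisor moves all genes at once and its p-values are too small, so no p from it is given.

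For the 8 genes, scaling to Cd8a and Cd8b1 also left differences much smaller than in the deposited FPKM, but most signs differed from the CD3 scale. The log2 differences of the 8 genes ran from -0.19 for Ctsw to 0.38 for Gzmm. Of the 8, 6 were positive, against 1 on the CD3 scale. Ctsw followed the CD8 chains most closely: per 100 FPKM of CD8 chains it was 75.1, 79.9 and 65.8 in S100A4-positive libraries and 81.0, 85.6 and 85.2 in S100A4-negative libraries. The highest of these 6 values was 1.30 times the lowest, the narrowest range of the 10 genes on either scale, although the S100A4-positive libraries were all below the others (difference -0.19, interval -0.43 to 0.046, exact permutation p = 0.1). Prf1 per 100 FPKM of CD8 chains was 16.3, 18.0 and 15.6 in S100A4-positive libraries and 12.0, 15.6 and 14.2 in S100A4-negative libraries. The Prf1 groups met at 15.6 to the digits given but did not overlap (difference 0.24, interval -0.075 to 0.56, exact permutation p = 0.1). Srgn and Serpinb9 stayed higher, by 3.73 (interval 2.25 to 5.22) and 3.25 (interval 1.74 to 4.75).

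**Figure D3:**
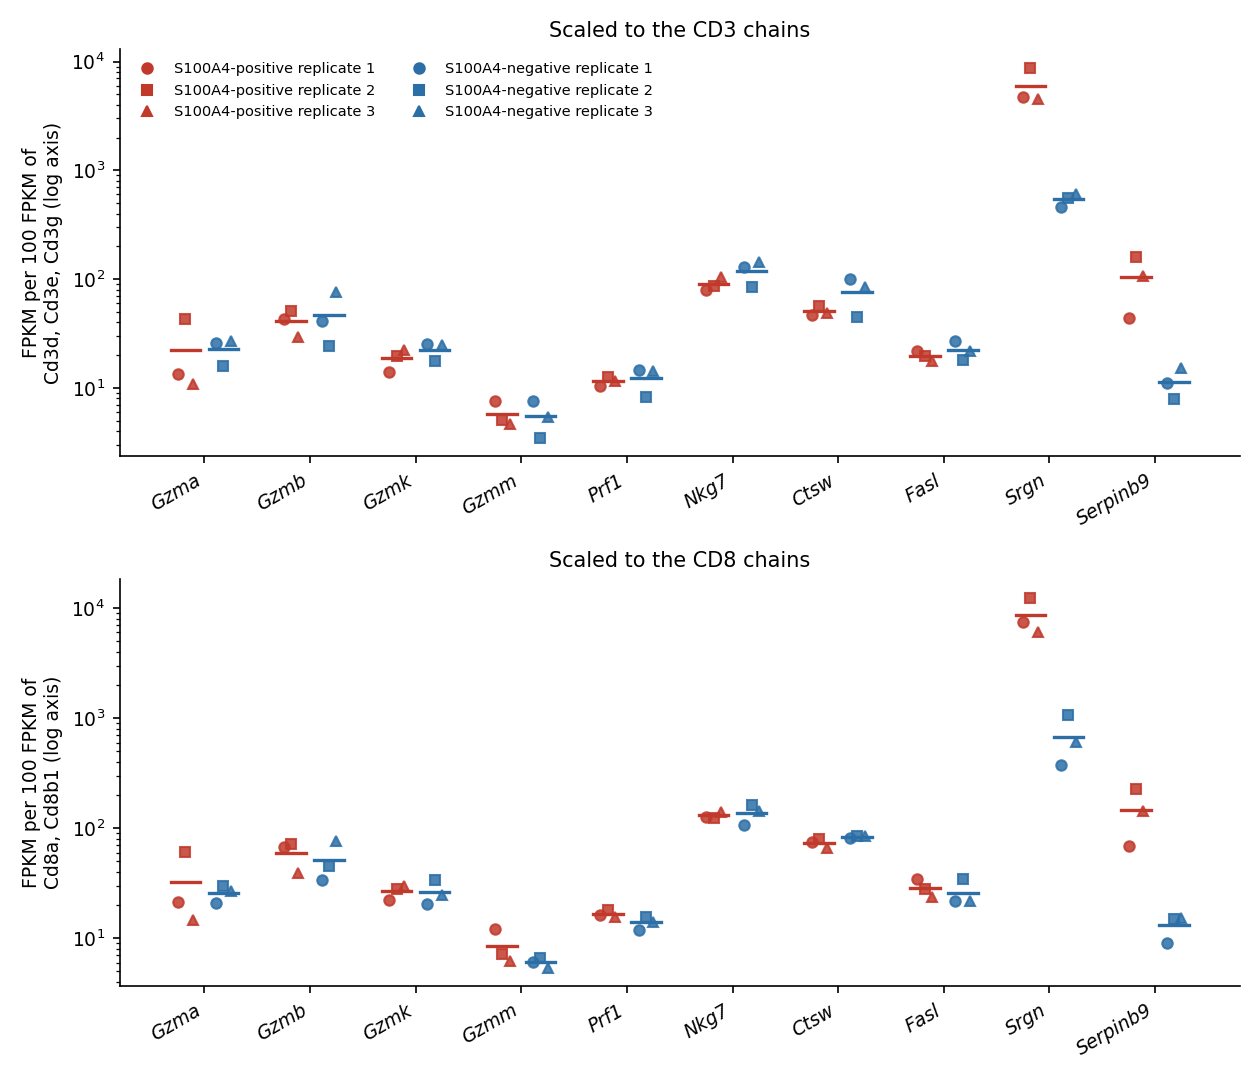
FPKM of each gene per 100 FPKM of the CD3 chains (top) and of the CD8 chains (bottom) in every library, on log axes, with S100A4-positive libraries in red on the left and S100A4-negative libraries in blue on the right of each gene, and a line at each group's mean. The groups overlap for the 8 genes in the top panel, while Srgn (4516 to 8764 against 457 to 603) and Serpinb9 (43.8 to 161 against 7.87 to 15.3) are apart.

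**Figure D4:**
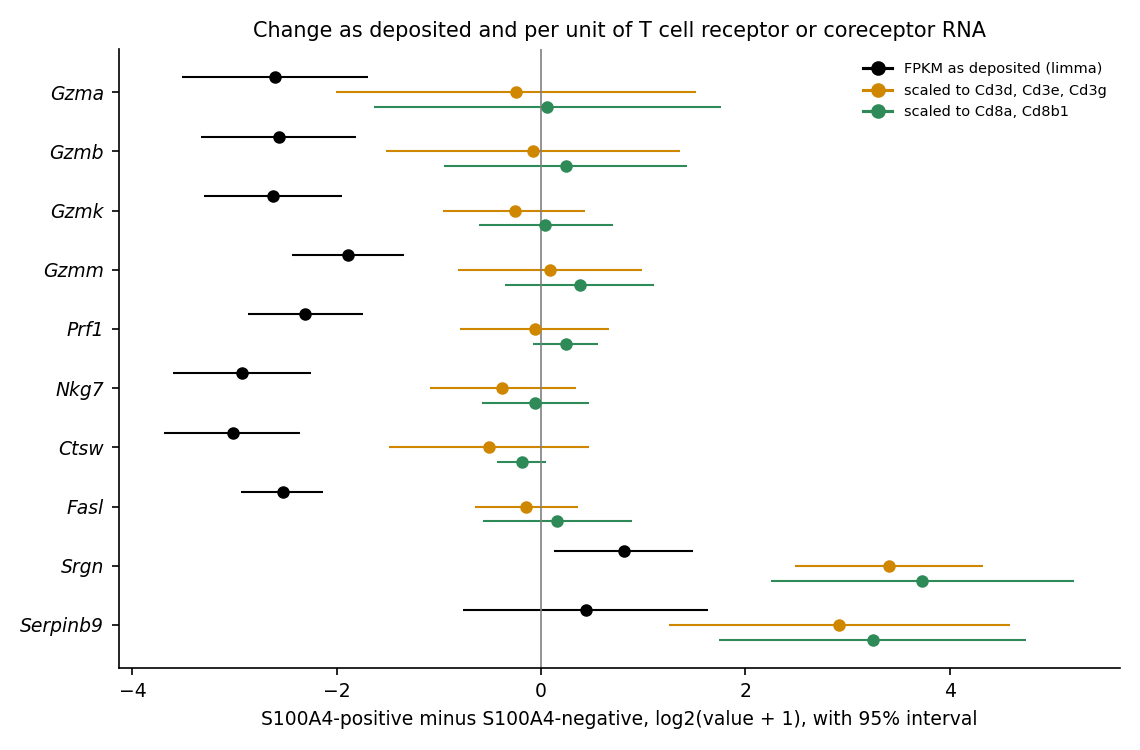
Log2 difference of each gene, S100A4-positive minus S100A4-negative, as deposited (black, limma), scaled to the CD3 chains (orange) and scaled to the CD8 chains (green), with 95% intervals. The black points of 8 genes lie between -3.02 and -1.89 and their scaled points between -0.51 and 0.38, while Srgn and Serpinb9 lie at 2.92 or above once scaled.

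The 300 bases around the transcription start, 250 before it and 50 after it, were taken from RefSeq (GRCm38.p6) and were at hand for 9 of the 10 genes, all but Ctsw. They are shown because 8 of the genes moved together. Both strands were searched for short letter strings known as core sites of factors of cytotoxic or myeloid cells: RUNX (TGTGGT), T-box (AGGTGTG), CRE (TGACGT), AP-1 (TGANTCA), NFAT (TGGAAA), the ZEB E-box (CAGGTG), ETS (CCGGAAG) and the PU.1 core (GAGGAAG). The T-box and E-box strings can overlap, but no matches overlap in the windows printed here, where capitals mark each match, read as the reverse complement where it lies on the other strand. The windows lie at chr14:56262285-56262584 on the minus strand for Gzmb, chr10:61297586-61297885 on the plus strand for Prf1, chr7:43436888-43437187 on the plus strand for Nkg7, chr13:113180916-113181215 on the minus strand for Gzmk and chr13:33004291-33004590 on the plus strand for Serpinb9, each printed 5′ to 3′ along its gene. Gzmb and Prf1 are the protease and pore former at the centre of granule killing, Nkg7 has the only T-box match, Gzmk has no match, and Serpinb9 did not move with the others.
Gzmb: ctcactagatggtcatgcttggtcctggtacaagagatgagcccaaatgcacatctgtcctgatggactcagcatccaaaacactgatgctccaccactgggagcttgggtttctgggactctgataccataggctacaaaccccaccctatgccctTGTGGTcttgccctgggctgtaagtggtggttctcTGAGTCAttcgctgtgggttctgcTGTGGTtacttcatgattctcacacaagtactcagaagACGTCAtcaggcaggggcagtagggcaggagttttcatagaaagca
Prf1: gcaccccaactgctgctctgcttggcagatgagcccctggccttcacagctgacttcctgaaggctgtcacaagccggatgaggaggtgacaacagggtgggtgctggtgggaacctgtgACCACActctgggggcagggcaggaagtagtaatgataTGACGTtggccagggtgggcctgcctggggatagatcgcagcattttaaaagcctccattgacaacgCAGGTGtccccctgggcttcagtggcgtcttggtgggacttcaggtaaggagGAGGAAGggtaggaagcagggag
Nkg7: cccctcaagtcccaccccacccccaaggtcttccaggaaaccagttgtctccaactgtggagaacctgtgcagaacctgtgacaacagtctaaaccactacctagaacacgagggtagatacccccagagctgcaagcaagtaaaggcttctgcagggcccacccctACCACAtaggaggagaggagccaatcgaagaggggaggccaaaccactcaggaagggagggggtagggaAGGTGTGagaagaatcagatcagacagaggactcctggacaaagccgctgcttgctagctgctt
Gzmk: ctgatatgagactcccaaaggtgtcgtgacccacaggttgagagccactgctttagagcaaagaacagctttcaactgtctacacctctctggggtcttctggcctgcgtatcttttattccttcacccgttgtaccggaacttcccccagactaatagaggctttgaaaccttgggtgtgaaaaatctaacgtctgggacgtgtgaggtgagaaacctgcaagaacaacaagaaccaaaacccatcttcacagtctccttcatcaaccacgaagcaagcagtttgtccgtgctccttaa
Serpinb9: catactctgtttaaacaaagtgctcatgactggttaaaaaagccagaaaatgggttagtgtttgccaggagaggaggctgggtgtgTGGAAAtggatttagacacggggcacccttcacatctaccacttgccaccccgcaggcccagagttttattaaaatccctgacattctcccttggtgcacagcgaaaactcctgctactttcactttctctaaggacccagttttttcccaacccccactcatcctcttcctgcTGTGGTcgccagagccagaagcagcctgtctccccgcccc

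The 9 genes had 11 windows, since Gzmm and Srgn had 2 each. The RUNX string was present in 7 of the 11 windows and in 16.8% of 32851 promoter windows of the same length. These windows belonged to 7 of the 9 genes (Gzma, Gzmb, Gzmm, Nkg7, Prf1, Serpinb9 and Srgn). In Gzmb the RUNX string stood at 2 places, beginning 93 and 34 bases before the start. For Srgn the RUNX, CRE and NFAT strings lay only in the window beginning at chr10:62507708, and ETS only in that beginning at chr10:62527396. The 7 genes include both that did not fall, so the match did not separate the members by their change. The CRE string was present in Gzmb, Prf1 and Srgn (7.51% of all windows), the NFAT string in Gzma, Gzmm, Serpinb9 and Srgn (21.4%), and the E-box in Gzma and Prf1 (20.2%). The T-box string was present in Nkg7 (5.84%), the AP-1 string in Gzmb (7.81%), ETS in Srgn (8.86%) and the PU.1 core in Gzmm and Prf1 (13.6%). The windows of Gzmk and Fasl held no match. A match is a string of letters and no measure of binding, and a window without one shows only that these letters are not in it.

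Factors that act on these genes changed in both directions. Of 16 listed transcription factors of cytotoxic lymphocytes, 11 were lower in S100A4-positive cells, 4 were higher and 1 did not pass the test. Their median log2 fold change was -1.14, beside -0.36 over all tested genes, of which 43.4% were lower and 19.0% higher. Eomes, which drives perforin and granzyme genes, was read at 4.38, 3.26 and 7.47 FPKM in S100A4-positive libraries and at 69.0, 25.9 and 40.9 FPKM in S100A4-negative libraries (log2 fold change -2.89, limma adjusted p = 6.75e-04). Tbx21, which encodes the related factor T-bet, was read at 2.70, 2.37 and 4.79 FPKM in S100A4-positive libraries and at 25.3, 18.7 and 19.8 FPKM in S100A4-negative libraries (-2.41, limma adjusted p = 1.88e-04). Both changes lie within the range of the T cell markers, -2.26 for Cd2 to -3.15 for Cd8b1. Irf4 (-1.58) and Stat4 (-1.55) fell less. Zeb2 (3.51), Id2 (1.95), Bhlhe40 (1.18) and Prdm1 (1.09), the last encoding Blimp-1, were higher. Macrophage and monocyte markers were higher too (median log2 fold change 3.51), and the part of other cell types in these changes was not tested. After median-of-ratios rescaling 9 were lower and 4 higher, since Runx3 and Stat5a lost their calls.

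The machinery of granule release was mixed. Of 16 genes tested, 5 were lower, 3 were higher and 8 did not pass the test. With 43.4% of all tested genes lower and 19.0% higher, these counts by themselves say little about the list. The synaptotagmin-like genes, whose products tether granules through Rab27a, were lower: Sytl3 (-2.21), Sytl2 (-1.64) and Sytl1 (-1.31). Sytl3 was read at 8.79, 12.6 and 8.16 FPKM in S100A4-positive libraries and at 67.2, 37.6 and 45.0 FPKM in S100A4-negative libraries. Rab27a itself was lower (-1.08). Unc13d, which primes granules for fusion, was lower too (-0.96), and was named after its value was seen. The SNARE genes Snap23 (1.49) and Vamp8 (1.45) and the late endosomal Rab7 (0.72) were higher. This list depended on scaling: after median-of-ratios rescaling 10 genes were higher and 5 lower.

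Genes for granule maturation and lysosomal proteins mostly stood opposite to the granzymes. Of 12, 10 were higher in S100A4-positive cells, 1 was lower and 1 did not pass the test, with a median log2 fold change of 2.08. The shares over all tested genes were 19.0% higher and 43.4% lower. Ctsb (3.68) and Cst3 (3.63), a lysosomal protease and a protease inhibitor abundant in myeloid cells, rose most, followed by Cd63 (3.22) and Lamp1 (2.36), which encode membrane proteins of lysosomes and granules. Cst7, which encodes cystatin F, an inhibitor of granule cathepsins in cytotoxic cells, was the member that fell: it was read at 11.7, 11.6 and 22.8 FPKM in S100A4-positive libraries and at 49.2, 37.9 and 43.5 FPKM in S100A4-negative libraries (-1.50, limma adjusted p = 0.00208). Macrophage and monocyte markers moved with this list, with a median log2 fold change of 3.51, Spic at 5.65 and Csf1r at 5.52, and their part in it was not tested.

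Genes of other death ligands and of their receptors and adaptors, taken as 1 list, did not follow Fasl as a group. Of 12 genes of death ligands, receptors and their adaptors, 6 were higher and 5 lower, beside 19.0% and 43.4% of all tested genes. Tnf was read at 301, 1569 and 1679.9 FPKM in S100A4-positive libraries and at 16.0, 76.9 and 44.6 FPKM in S100A4-negative libraries (log2 fold change 4.56, SE 0.77, limma adjusted p = 0.00193). Cflar (2.84), which encodes an inhibitor of caspase-8, and the TNF receptors Tnfrsf1a (2.21) and Tnfrsf1b (1.74) were also higher, as was Fas, the receptor of Fasl, by 0.89, a gene named after its value was seen. Ltb (-1.42), Tnfrsf10b (-1.28), Tnfsf10, which encodes TRAIL (-1.19), and Lta (-0.94) were lower, of which Lta lost its call after median-of-ratios rescaling (adjusted p = 0.111), which left 3 of the 12 genes lower.

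Of the other serpins, 5 passed the filter; Serpinb6a was higher (0.69), Serpina3f was lower (-0.79), a call lost after median-of-ratios rescaling (adjusted p = 0.172), and 3 did not pass the test. Serpinb9c, Serpinb9d, Serpinb9e, Serpinb9f and Serpinb9g were listed at 0 in all 6 libraries. Markers of NK cells, the other cell type that uses these granules, did not fall together. Of 5 tested, Cd244a was higher (3.10), Klre1 (-1.71) and Klrb1c (-0.65) were lower, and 2 did not pass the test. Beside these lists, 43.4% of all tested genes were lower and 19.0% higher. Klrb1c lost its call after median-of-ratios rescaling (adjusted p = 0.173), which left 2 higher and 1 lower. The summed level of the 9 NK markers was 39.9 to 52.0 FPKM in S100A4-positive libraries and 8.50 to 15.8 FPKM in S100A4-negative libraries, most of it from Cd244a, which other leukocytes also express, in the S100A4-positive libraries. Ncr1, the defining NK marker, was at 0, 0.770 and 0.585 FPKM in S100A4-positive libraries and at 0.159, 0.152 and 0.145 FPKM in S100A4-negative libraries.

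**Figure D5:**
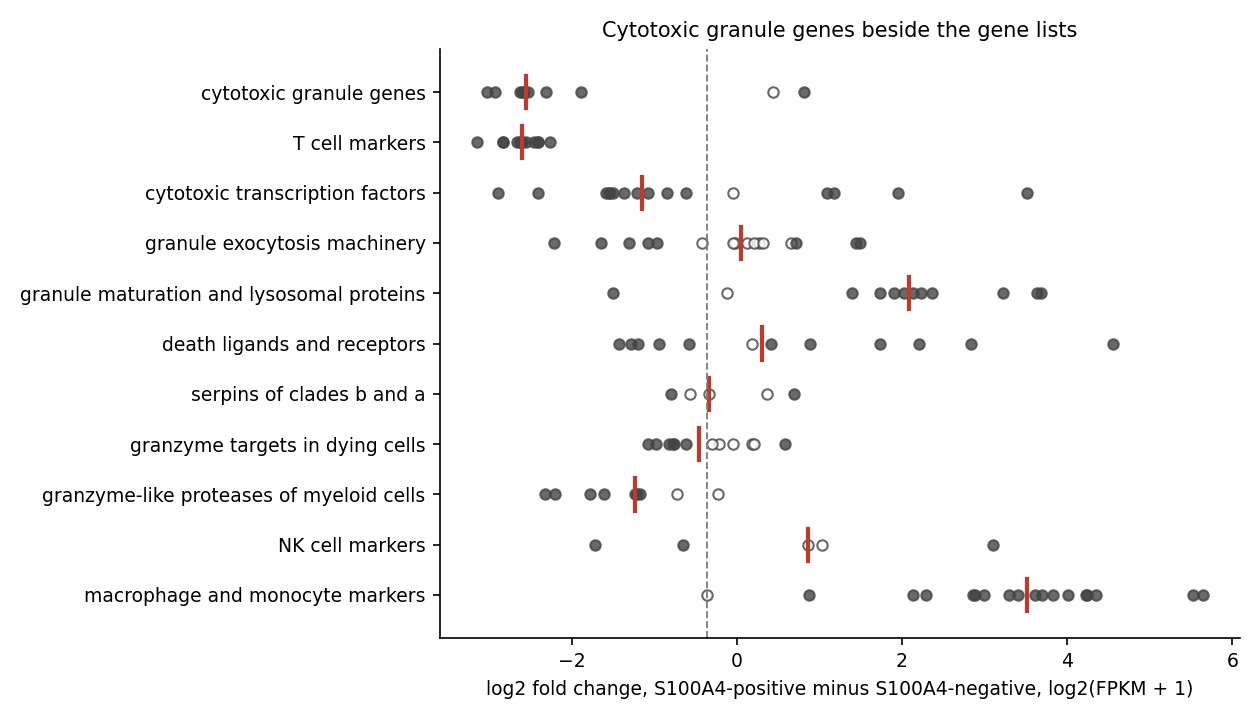
Log2 fold change, S100A4-positive minus S100A4-negative, of every tested gene of the lists drawn. Filled points mark genes called by limma and open points the others, with a red bar at each list's median. A dashed line marks the median of all tested genes (-0.36). Not drawn are the markers of neutrophils (median -2.35), B and plasma cells (-1.45) and plasmacytoid dendritic cells (-0.27). Of the cytotoxic granule genes (median -2.55), 7 lie in the range of the T cell markers (median -2.61), and Serpinb9 (0.44) and Srgn (0.81) lie above 0. Gzmm (-1.89) lies above the T cell marker range on this log2(FPKM + 1) scale, which makes its change smaller. The medians of the granule maturation and lysosomal proteins (2.08) and the macrophage markers (3.51) lie on the other side of 0.

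The genes whose profile over the 6 libraries was most like that of a member were found among 8806 genes with a mean of at least 5 FPKM, by the root mean square difference of centred log2(FPKM + 1). The closest gene to Gzmk was Cd3d (0.16), and the closest to Ctsw was Cd8b1 (0.15). Nkg7, Gzmk and Ctsw were near each other, with Gzmk and Nkg7 the closest pair of members (0.19), and Baiap3 was among the nearest 3 genes of each. The nearest genes to Gzma were Klrc1, Sytl3 and Klrc2 (0.39 to 0.41), and those to Gzmb were Cyp11a1, Klrc1 and Bcat1 (0.34 each), so these profiles had no near match. Prf1 was nearest to Itm2a (0.12), Klk8 and Tnik. Gzmm was nearest to Itga6 (0.071), Smc4 and Adcy3, and Fasl to Sh2d2a (0.059), Gramd3 and Ablim1. Srgn was nearest to Nfkbil1 (0.068), Tmem158 and Snx20.

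Serpinb9 was nearest to Serpinb6b (0.073), another serpin gene on chromosome 13, which was read at 12.7, 47.1 and 50.1 FPKM in S100A4-positive libraries and at 24.7, 19.3 and 28.9 FPKM in S100A4-negative libraries. Both had their lowest level in S100A4-positive replicate 1 and their highest levels in the other S100A4-positive libraries. Jag2 (0.24) and Mir155hg (0.26) followed at a distance. The likeness rests on 6 libraries that share the difference between the groups, and close copies among the serpins may share reads.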

How the data were processed

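RNA-seq libraries of S100A4-positive and S100A4-negative CD8+ effector-memory T cells, 3 each, were grouped by their titles. Per the submitters' processing notes, HISAT2 2.1.0, Cufflinks, Cuffnorm and the build mm10 were used, with no role given. The deposited values are FPKM per gene and library, and the authors' deposited comparison table holds a mean normalized read count per group (a signal), a log2 fold change, a p-value and an adjusted p-value; its test, the counting tool and its use of strand are not given in the sources used here.

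The values log2(FPKM + 1) of genes with a mean of at least 1 FPKM were tested in R 4.3.3 with the package limma 3.58.1, using a trend in the prior variance, Benjamini-Hochberg adjustment and no replicate block; fold changes of low genes are understated on this scale. Whole reads could be recovered for 100.0% of 135018 values above 0, within 0.02 of a read, giving 14925260 to 18660188 reads a library. The limma voom test on these reads called 8239 genes, against 8253 on FPKM. FPKM values were also divided by the geometric mean of CD3 or CD8 chains; those differences have intervals from the spread between libraries and exact two-sided permutation tests, with Benjamini-Hochberg adjustment over 20 tests. The 10 members and 14 gene lists were chosen with earlier results of these data known. All members are named, with up to 4 called genes of largest change per list and direction and the 3 nearest profiles of each member; exceptions are stated, and a few list genes are not reported here. Coordinates are from GENCODE M21 and promoters from RefSeq, both GRCm38, the build that mm10 names. Only the limma fit was tested on simulated data, in which few genes changed, as many up as down, unlike these data. Alternatives were another pseudocount, other filters, median-of-ratios and quantile scaling, no trend, array weights, the replicate block, leaving out each library and voom. Other steps used Python 3.11.15, numpy 2.4.6, pandas 2.3.3, scipy 1.17.1 and matplotlib 3.10.9.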

Additional observations from a re-analysis of the deposited data

How the results depend on the processing

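The 8 falls kept their direction and call in all 16 alternatives (15 for Gzmm, which a filter of 5 FPKM removes), and 9 of 10 members were called with the replicate block. The count of members called higher was 0 with no filter and 0 to 2 on leaving out a library, since Srgn lost its call without any library but S100A4-positive replicate 1 and Serpinb9 gained one without that library. The median log2 fold change of the members was -2.19 after median-of-ratios rescaling, and the all-gene count of lower calls was 5741 as deposited, 3217 after that rescaling and 3155 by voom with the authors' size factors, an alternative chosen after seeing the data. Of the CD3-scaled differences of the 8 genes, those of Nkg7 (-0.60 to -0.055) and Ctsw (-0.85 to -0.19) kept their sign in all 13 alternatives, and those of Gzmk and Fasl changed it only when scaled to CD8 chains. On that scale the differences that changed sign were 0.061 for Gzma, 0.24 for Gzmb, 0.043 for Gzmk, 0.24 for Prf1 and 0.16 for Fasl. On leaving out a library the CD3-scaled differences ran from -0.83 to 0.12 for Gzma, -0.47 to 0.33 for Gzmb, -0.15 to 0.31 for Gzmm and -0.31 to 0.077 for Prf1. The cause was not tested. Array weights could not be fitted on the CD3-scaled values. Whether the replicate numbers pair the libraries was not settled, and the main tests treat the libraries as unpaired. Same-numbered libraries correlated by 0.376, 0.083 and 0.366 in their deviations from the group means, and differently numbered ones by -0.379 to 0.146. S100A4-positive replicate 2 correlated best with S100A4-negative replicate 3 (0.146). The block raised the count over all genes to 8857, against 8253 without it. With 3 libraries a group and 19 to 43 reads in the lowest libraries of Gzmm and Gzma, smaller differences may be missed.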

Other observations

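Genes of proteins that granzymes cut or act on in dying cells had counts of calls near those of all tested genes: of 12 tested, 6 were lower in S100A4-positive cells, 1 was higher and 5 did not pass the limma test, where 43.4% of all tested genes were lower and 19.0% higher. The median log2 fold change was -0.45 over these genes and -0.36 over all tested genes. Hmgb2 (-1.07), Dffb (-0.98) and Parp1 (-0.82) fell. After median-of-ratios rescaling 3 were lower and 2 higher, and Parp1 was among those that lost their calls (adjusted p = 0.0545).

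Serine and mast cell proteases of myeloid cells, relatives of the granzymes or their granule partners, were scarce. Of 9 tested, 7 were lower in S100A4-positive cells and 2 did not pass the limma test, where 43.4% of all tested genes were lower. After median-of-ratios or quantile scaling 5 were lower and 4 were not called. Mcpt8, a basophil protease, was read at 0.662, 2.86 and 2.91 FPKM in S100A4-positive libraries and at 4.50, 9.72 and 52.0 FPKM in S100A4-negative libraries (log2 fold change -2.32, adjusted p = 0.0344), a call lost under both scalings (adjusted p = 0.0651 and 0.0581). Prss34, another basophil protease, was read at 1.69, 2.97 and 2.22 FPKM in S100A4-positive libraries and at 5.55, 11.8 and 38.7 FPKM in S100A4-negative libraries (-2.20, adjusted p = 0.0137). Cpa3 (-1.78) and Elane (-1.61) were lower too. S100A4-negative replicate 3 held most of this RNA: the summed level of the list was 20.5, 17.7 and 14.1 FPKM in S100A4-positive libraries and 32.6, 48.2 and 154 FPKM in S100A4-negative libraries.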
